A study of Bos taurus with 2 samples.

Results

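TMEM176A, TMEM176B, AKR1C4 and KLK7 are 4 of the 27270 genes counted in single cells of the bovine mammary gland. They were picked by name from an earlier analysis of the same libraries, in which they stood out as higher in adult than in newborn fibroblasts. That difference therefore chose them and is given here as a description only. What follows concerns where in the gland each gene was counted, whether the TMEM176 genes were counted in the same cells, and how the cells that held them differed from their neighbours. The identifiers in the files are ENSBTAG00000012078 for TMEM176A, ENSBTAG00000016766 for TMEM176B, ENSBTAG00000022564 for AKR1C4 and ENSBTAG00000030483 for KLK7.

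TMEM176A and TMEM176B lie next to each other in the genome and encode multi-pass membrane proteins related to the MS4A family, the family of the B cell antigen CD20. In mouse and human they are best known from dendritic cells, macrophages and some lymphocytes, and the proteins have been linked to ion flux across membranes inside the cell. AKR1C4 belongs to the aldo-keto reductases, enzymes that use NADPH to turn carbonyl groups into alcohols. The human enzyme of that name acts on steroids and bile acid precursors, mainly in liver, and close relatives act on prostaglandins. KLK7 is a secreted serine protease of the kallikrein family, known in human and mouse skin for cutting the junctions between cornified cells.

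The tissue came from Holstein cattle. The adult library was made from lactating mammary gland and the newborn library from newborn mammary gland, with 1 library each. The labels used here give no age in days, sex, stage of lactation or number of animals, so neither stage has a replicate. No test between stages could be made, stage cannot be told apart from animal and library, and all intervals are 95% intervals that cover counting error only. Both tissues were cut, treated with EDTA, digested with hyaluronidase and collagenases and strained, which can lose fat cells and other large or fragile cells.

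The adult library held 15897 barcodes with a median of 2723 UMIs (unique molecular identifiers, each marking 1 captured transcript), and the newborn library 13772 barcodes with a median of 4581 UMIs. After limits on genes and mitochondrial UMIs and removal of likely doublets, 12823 adult and 12199 newborn cells were kept, and 57 barcodes occurred in both libraries. Those shared barcodes held 8, 9, 3 and 0 adult UMIs of TMEM176A, TMEM176B, AKR1C4 and KLK7, and 0 newborn UMIs of any of the 4. Cells were clustered within each library without the 4 genes and named from marker lists, and levels are UMIs per 1000000 UMIs of the same cells (CPM). The adult library was led by 7049 T or NK cell-like and 2522 endothelial-like cells and held 719 luminal epithelial-like, 409 milk-secreting epithelial-like and 200 fibroblast-like cells. The newborn library held 8541 fibroblast-like cells and no cluster that could be named epithelial. A further 2405 newborn cells, 19.7% of those kept, lay in 4 unnamed clusters outside the fibroblast-like class. In N4, N5 and N9 of these clusters the fibroblast list was still the one most fully held. Over all barcodes EPCAM, the epithelial adhesion gene, had 15888 adult and 12 newborn UMIs, and the luminal keratin gene KRT8 had 29196 adult and 0 newborn UMIs. The levels of the 4 genes in epithelium can therefore be described in the adult library only.

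Over all barcodes, TMEM176A had 1534 adult UMIs in 510 cells and 11 newborn UMIs in 3 cells. TMEM176B had 1225 adult UMIs in 471 cells and 8 newborn UMIs in 2 cells. AKR1C4 had 790 adult UMIs in 355 cells and 13 newborn UMIs in 9 cells. KLK7 had 94 adult UMIs in 40 cells and 12 newborn UMIs in 11 cells. All 4 genes were sparse, and none was counted in more than 3.21% of the barcodes of either library.

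Most TMEM176A and TMEM176B UMIs of the lactating gland were in luminal epithelial-like cells that were not making milk protein in quantity. These 719 cells, 5.61% of the kept adult cells, held 90.6% of the kept TMEM176A UMIs and 89.4% of the kept TMEM176B UMIs. TMEM176A stood at 94.6 CPM (89.2 to 100.3) with a UMI in 42.4% of the cells, and TMEM176B at 73.6 CPM (68.9 to 78.6) with a UMI in 39.4%. When cells were named one by one from the markers they held, in place of by cluster, the luminal levels were 36.7 and 28.7 CPM, with 380 of 1175 such cells from the milk-secreting cluster class. The milk-secreting epithelial-like cells, which carried a median of 35818 UMIs, had 0.455 CPM of TMEM176A (0.208 to 0.864) and 0.405 CPM of TMEM176B (0.175 to 0.797). The 2 epithelial classes thus lay far apart, with intervals that did not overlap.

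Fibroblast-like cells of the adult held TMEM176A and TMEM176B at nearly the luminal level although they were few and shallow. In these 200 cells, with a median of 2108 UMIs, TMEM176A had 52 UMIs in 39 cells, or 81.3 CPM (60.7 to 106.6). TMEM176B had 40 UMIs in 28 cells, or 62.5 CPM (44.7 to 85.1). The intervals of fibroblast-like and luminal epithelial-like cells overlapped for both genes. In every other adult class of at least 50 cells both genes were at or below 3.17 CPM, and adult macrophage or monocyte-like cells, the type in which these genes are best known, had 0 and 1 UMIs among 1528998.

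AKR1C4 was highest in the adult fibroblast-like cells. Its 93 UMIs in 51 of the 200 cells gave 145.3 CPM (117.3 to 178.0). Luminal epithelial-like cells followed with 32.4 CPM (29.2 to 35.7), and 394 UMIs there made up 62.9% of the kept AKR1C4 UMIs. The class was both larger and deeper, with 12173245 UMIs in 719 cells against 639944 in the 200 fibroblast-like cells. Of the 394 AKR1C4 UMIs, 1 luminal cell held 70, and without it the class stood at 26.7 CPM. The neutrophil-like class stood at 18.0 CPM (10.5 to 28.8) and the unnamed cluster A13, led by IL13 and CHGA, at 5.73 CPM on 6 UMIs. Adult endothelial-like cells had 4.34 CPM (3.33 to 5.56), spread thinly over 57 of 2522 cells with at most 2 UMIs in any cell. Milk-secreting cells had 1.82 CPM (1.28 to 2.52) and T or NK cell-like cells 0.678 CPM (0.371 to 1.14).

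In the neutrophil-like class, of 17 AKR1C4 UMIs, 15 were in 5 cells of a cluster of 28 cells, A24. Its leading genes were F13A1, DEFB13, LYZ, TAP and SERPINB2, it met 44.4% of the neutrophil list and 35.7% of the macrophage list, and it is therefore called by its number only. AKR1C4 stood at 74.0 CPM in A24 (41.4 to 122.1), while TMEM176A had 0 UMIs there. The neutrophil-like cells outside A24 had 2 AKR1C4 UMIs.

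KLK7 was counted in fibroblast-like cells and almost nowhere else. Of the 49 kept adult UMIs, 46 were in 22 fibroblast-like cells, which gave 71.9 CPM (52.6 to 95.9), 1 lay in a milk-secreting cell, and 2 lay in cells of the T or NK class. The luminal epithelial-like cells held 0 KLK7 UMIs among 12173245, which allows up to 0.246 CPM. All 10 kept newborn UMIs were in fibroblast-like cells as well. KLK7 was thus the gene of the 4 with the narrowest distribution, and TMEM176A and TMEM176B were those with the highest share in epithelium.

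**Figure D1:**
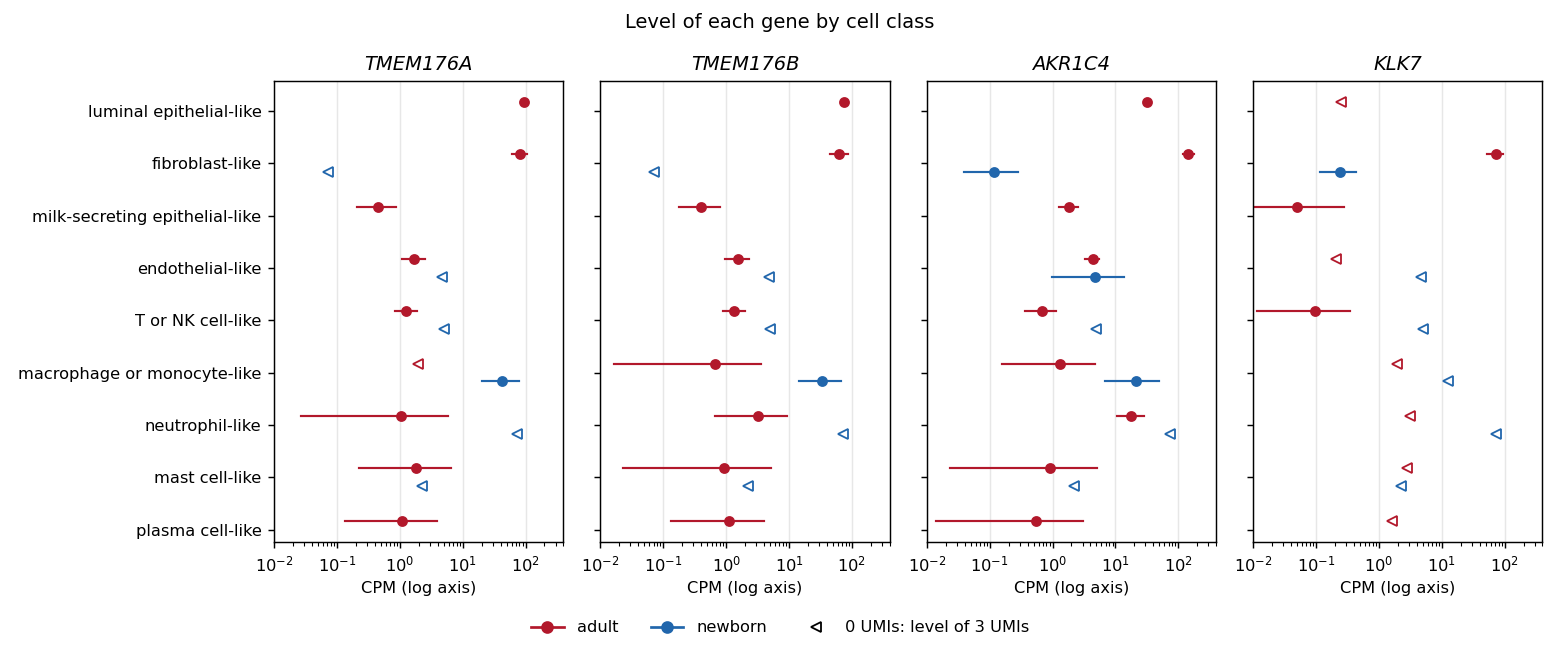
Level of each of the 4 genes in CPM (log axis) by cell class in the adult and the newborn library. Points are the level of the summed cells, lines the 95% Poisson interval (counting error only, cut at the left edge of the axis), and open triangles classes with 0 UMIs drawn at the level that 3 UMIs would give. TMEM176A and TMEM176B peak in adult luminal epithelial-like and fibroblast-like cells at 94.6 and 81.3 CPM for TMEM176A, while KLK7 stands out in fibroblast-like cells only, at 71.9 CPM in the adult.

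Droplet libraries can hold RNA from lysed cells, and empty droplets were not measured here. The summed level of the 15 luminal marker genes was therefore set beside the TMEM176 level of each class. In T or NK cell-like cells these markers stood at 1.40% of their luminal level, and the summed TMEM176A and TMEM176B level at 1.55% of its luminal level, on 54 UMIs with at most 1 UMI of each gene per cell. The 53 T or NK cell-like cells with a TMEM176 UMI had 700.0 CPM of luminal and 295.4 CPM of fibroblast markers, against 441.6 and 67.9 CPM in those without. Mast cell-like cells stood at 1.30% for the markers and 1.64% for the TMEM176 genes, plasma cell-like cells at 1.21% and 1.30%, endothelial-like cells at 0.889% and 1.91%, and the unnamed cluster at 1.12% and 2.27%. The TMEM176 share was the lower one in neutrophil-like cells, at 3.34% and 2.51%, in macrophage or monocyte-like cells, at 0.962% and 0.389%, and in milk-secreting cells, at 10.2% and 0.511%. In fibroblast-like cells the markers stood at 1.38% and the TMEM176 genes at 85.5%, with 15 markers measured and PROM1 alone at 0. The part of free RNA in the low counts was not tested.

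**Figure D2:**
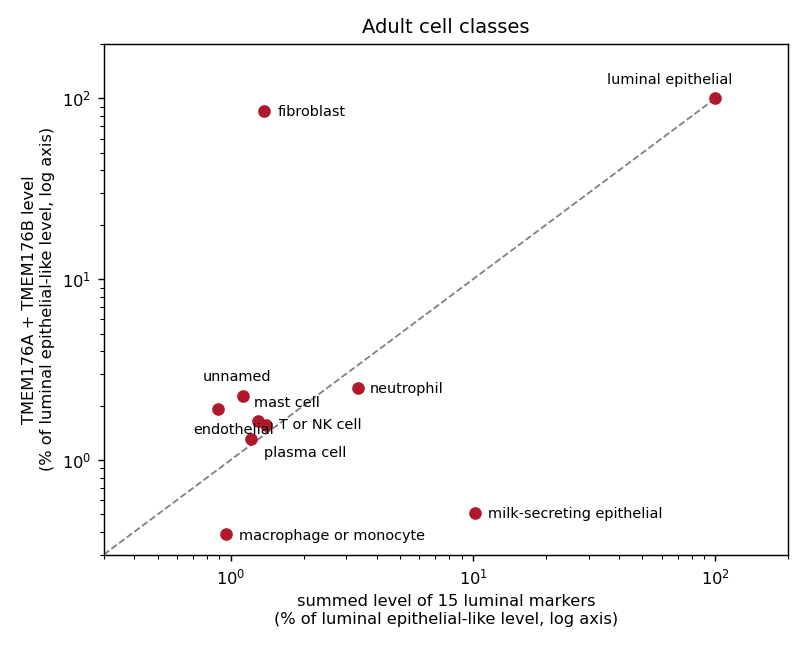
Summed TMEM176A and TMEM176B level against the summed level of 15 luminal marker genes in the adult cell classes, each as a percentage of the luminal epithelial-like level (both axes log). The dashed line marks equal percentages; T or NK cell-like cells lie close to it at 1.55%, fibroblast-like cells far above it at 85.5%, and macrophage or monocyte-like and milk-secreting epithelial-like cells below it at 0.389% and 0.511%.

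In endothelial-like cells 1 cell carried much of the count. It held 11 TMEM176A and 10 TMEM176B UMIs of the 24 and 22 in the class, together with 61 UMIs of luminal markers and 13 of lymphatic markers. The other endothelial-like cells had 1.75 CPM of the summed genes. Whether that cell was a doublet was not tested.

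The newborn library had TMEM176A and TMEM176B in 2 kept cells. Both belonged to N15, a cluster of 27 macrophage or monocyte-like cells led by C1QB, C1QA, CD209, TIMD4 and C1QC. The first held 8 TMEM176A and 7 TMEM176B UMIs beside 116 UMIs of the complement gene C1QA and 0 of the luminal markers. The second held 2 and 1, beside 46 of C1QA and again 0 of the luminal markers. These gave 42.4 CPM of TMEM176A (20.4 to 78.0) and 33.9 CPM of TMEM176B (14.7 to 66.9) in the 27 cells. The adult macrophage or monocyte-like cells, 223 in number, had 0 UMIs of TMEM176A and 1 of TMEM176B, a difference that rests on 2 newborn cells. A further newborn barcode with 1 TMEM176A UMI had been removed as a likely doublet.

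AKR1C4 in the newborn was spread over 3 classes. The fibroblast-like cells held 5 UMIs in 4 cells, or 0.119 CPM. The macrophage or monocyte-like cells held 5 in 3 cells, or 21.2 CPM (6.89 to 49.5), and adult macrophage or monocyte-like cells 2 in 223 cells. The newborn endothelial-like cells held 3 UMIs in 2 of 89 cells, or 4.73 CPM (0.976 to 13.8). Adult and newborn endothelial-like cells did not differ beyond their counting error in AKR1C4, at 4.34 and 4.73 CPM and an adult over newborn ratio of 0.917 (0.300 to 4.57).

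In fibroblast-like cells, adult levels of all 4 genes stood far above newborn ones, the contrast for which the genes were picked. TMEM176A and TMEM176B had 52 and 40 UMIs in the adult cells and 0 each among 41914158 newborn UMIs, so that against a floor of 3 UMIs the adult level was at least 1135-fold and at least 873-fold higher. With the counting error of the adult UMIs and of that floor, the lower ends were 368-fold and 278-fold. AKR1C4 was 1218-fold higher (504 to 3840), on 93 adult and 5 newborn UMIs. KLK7 was 301-fold higher (150.0 to 670), on 46 adult and 10 newborn UMIs. Among the 12102 genes measured in these cells, with at least 20 UMIs in either library, 295 had an adult excess of 4-fold or more at 50 CPM or above, or 2.44%, and 145 a newborn excess of that size, or 1.2%. Ordered by their ratios, AKR1C4, TMEM176A, TMEM176B and KLK7 were numbers 11, 12, 13 and 17 of the 295, where the TMEM176 places rest on lower bounds and could be higher. The median gene stood 0.77 higher in the adult on the log2 scale. With libraries scaled so that the median gene had no difference, the counts were 120 higher in the adult and 331 higher in the newborn, and the 4 genes stood at 664-fold, 511-fold, 713-fold and 176-fold, of which the TMEM176 values are lower bounds.

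The TMEM176 genes belonged to a small set without a newborn count. Of 3056 genes with at least 50 CPM and 20 UMIs in adult fibroblast-like cells, 10 had 0 UMIs in newborn fibroblast-like cells. The other 8 were CSN1S1, CSN1S2, CSN2, CSN3, LALBA, PAEP, HSTN and KRT15, mostly genes of milk proteins. The fixed list of 11 milk genes stood in adult fibroblast-like cells at 3.20% of its level in milk-secreting cells, close to the 3.30% in T or NK cell-like cells, whereas the TMEM176 genes stood at 85.5% and 1.55% of their luminal level in these 2 classes. Among endothelial-like and lymphocyte-like (T or NK) cells the newborn classes were too small to bound an adult excess, since 3 newborn UMIs would already have given 4.73 and 5.00 CPM, more than the adult levels of TMEM176A and TMEM176B.

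Within the luminal epithelial-like cells the TMEM176 genes were unevenly spread. The class consisted of 2 clusters. A9 held 495 cells led by LCN2, WFDC2, M-SAA3 and KRT15, genes of innate defence and of ductal or progenitor-type epithelium, and A14 held 224 cells led by MGC151921, BDA20, PNMT, SERPINA11 and HEPACAM2. TMEM176A stood at 61.4 CPM in A9 (56.7 to 66.3) and at 300.3 CPM in A14 (274.7 to 327.5). TMEM176B stood at 49.3 CPM in A9 (45.2 to 53.8) and at 223.6 CPM in A14 (201.6 to 247.2). AKR1C4 stood at 26.4 CPM in A9 and 69.0 CPM in A14 (57.1 to 82.7). A14 was named basal or myoepithelial-like with at least 500 genes per cell or at resolution 0.5, and the luminal class then had 62.2 and 61.4 CPM of TMEM176A, close to A9 alone. As reported, A14 was higher than A9 in all 3 genes, with intervals that did not overlap, and the AKR1C4 level in A9 was 19.8 CPM without the cell that held 70 UMIs.

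Even inside A9 the UMIs were concentrated. TMEM176A was found in 32.1% of its cells, whereas 60.7% would have held a UMI had the same UMIs been spread in proportion to each cell's depth. In A14 it was found in 65.2% against 78.2% on an even spread, and in fibroblast-like cells in 19.5% against 21.3%. A9 thus had cells with and without the gene, while the counts of fibroblast-like cells came close to an even spread at their low depth.

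Clustering the luminal cells again, a step chosen after the first results had been seen, gave 10 sub-clusters numbered L0 to L9. TMEM176A was highest in L6, L3 and L4, which came almost wholly from A14, with 343.3, 300.7 and 251.9 CPM. It was intermediate in L5 and L1, both from A9, with 115.2 and 85.5 CPM. It was low in L0 and L2, also from A9, with 10.8 and 12.3 CPM, and L7, which was led by milk genes such as CSN1S2 and PAEP, had 0 UMIs. L9, a group of 11 cells within A14 led by DKK1, COL17A1 and KRT14, of which KRT14 is a basal keratin gene, also had 0 UMIs. The 16 cells of L8, led by JCHAIN and MZB1, genes of plasma cells, had 11 UMIs in 2 cells. TMEM176B followed the same order down to L8, at 295.4, 203.8 and 184.3 CPM in L6, L3 and L4 and 104.1 and 65.3 CPM in L5 and L1.

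The sub-clusters with most TMEM176A, L6, L3 and L4, were also those with most FOXA1, the pioneer factor of oestrogen-responsive epithelium. FOXA1 stood there at 113.6, 103.2 and 95.2 CPM. It stood at 38.6 and 50.03 CPM in L5 and L1, in the opposite order to TMEM176A, and at 2.16, 7.26 and 7.55 CPM in L0, L2 and L8. ESR1, the oestrogen receptor gene, stood at 32.8, 13.8 and 33.8 CPM in L6, L3 and L4, at 15.3 and 10.3 CPM in L5 and L1, and at 0.866 and 2.90 CPM in L0 and L2. ELF5, the factor of the alveolar secretory lineage, stood at 20.2, 64.2 and 41.5 CPM in L6, L3 and L4 and at 829.1 and 680.2 CPM in L0 and L2. It was also high in L5 and L1, at 649.6 and 584.1 CPM, where TMEM176A was intermediate, and low in L9, at 35.3 CPM, where TMEM176A had no UMI, so ELF5 and TMEM176A did not simply run against each other. Over the 10 sub-clusters the correlation of TMEM176A with TMEM176B was 0.99, with FOXA1 0.97, with ESR1 0.93, with AKR1C4 0.91, with PGR 0.43 and with ELF5 -0.50, on log2 levels. The points share 1 library, and FOXA1 was chosen after its values were seen, so these correlations are a description.

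AKR1C4 did not follow TMEM176A in every luminal sub-cluster. It was highest in L4 and L3 at 95.2 and 75.5 CPM. In L6, where TMEM176A was highest, it stood at 30.3 CPM (15.7 to 52.9), below L4 (73.0 to 122.1) with intervals that did not overlap. In L1 it stood at 47.5 CPM, a value that includes the cell with 70 UMIs.

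**Figure D3:**
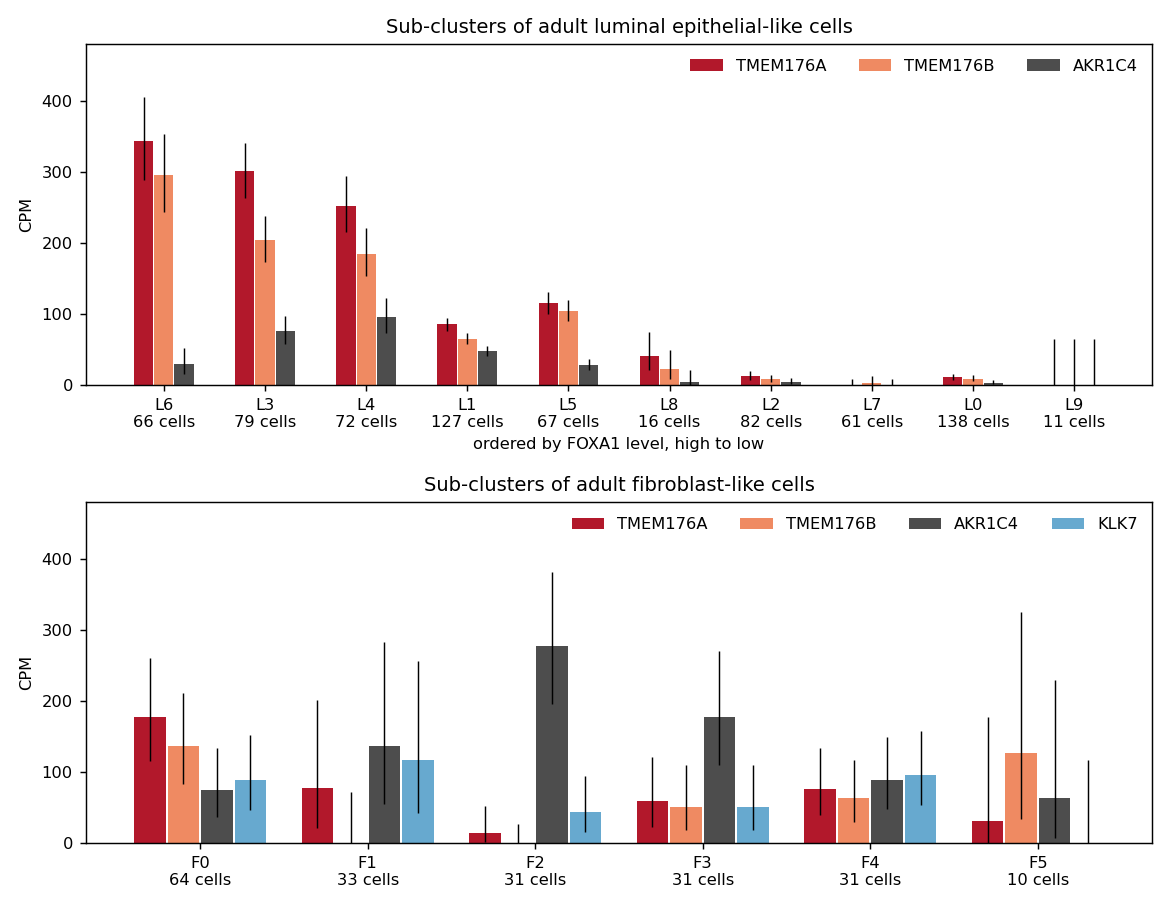
Levels in CPM of the 4 genes in sub-clusters of adult luminal epithelial-like cells, ordered by FOXA1 level, and of adult fibroblast-like cells (KLK7 is drawn for fibroblasts only). Bars are levels of the summed cells and lines 95% Poisson intervals; TMEM176A reaches 343.3 CPM in L6 and falls to 12.3 CPM or less in L0, L2, L7 and L9, while in fibroblasts TMEM176A is highest in F0 and AKR1C4 in F2.

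In A9, the cells with a TMEM176 UMI differed from those without in further genes. The 180 cells with a UMI had a median of 31876 UMIs and the 315 without a median of 11700, so depth moved with detection. MT1A, a metallothionein gene, stood at 304.2 CPM with and 20.2 CPM without, the chemokine gene CXCL14 at 141.6 and 6.41 CPM, and the matrix protein gene SMOC2 at 78.2 and 4.04 CPM. KRT17, a keratin gene, stood at 41.3 CPM with and 361.8 CPM without, and KRT23 at 4.63 and 51.99 CPM. KRT17 was found in 25.6% of the cells with a TMEM176 UMI and 21.3% of the others, and KRT23 in 8.33% and 6.67%. The keratin levels of both groups thus came from a minority of cells. Depth is not held equal in these shares, so they cannot say whether the keratins were rarer at the same depth. In A14 depth also moved with detection, at a median of 8260 UMIs in the 168 cells with a TMEM176 UMI and 3104.5 without. The A14 cells with a TMEM176 UMI had the basal and contractile genes KRT17, ACTA2 and MYH11 at 6.60, 0.660 and 1.98 CPM. Those without had them at 3223, 1804 and 811 CPM, levels carried by 19.6% of the 56 cells without. These genes were picked for their difference between cells split by TMEM176 detection and carry no test.

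The TMEM176 genes were counted together in luminal cells. Without thinning, 240 luminal epithelial-like cells held both genes, 65 TMEM176A only, 43 TMEM176B only and 371 neither. TMEM176B was found in 78.7% of the cells with TMEM176A (73.7 to 83.1%) and in 10.4% of those without (7.62 to 13.8%). Because deep cells hold more of any gene, each cell was also thinned to a fixed number of UMIs. At 1000 UMIs, 690 cells remained and only 50 held TMEM176A, of which 20.0% also held TMEM176B (10.0 to 33.7%), against 6.88% of those without (5.04 to 9.12%). At 5000 UMIs, a depth added after the data had been seen, the shares were 55.8% (48.2 to 63.2%) and 11.7% (8.74 to 15.2%) in 592 cells.

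Inside A9 the outcome depended on the depth. At 1000 UMIs, 1 of 15 A9 cells with TMEM176A held TMEM176B, or 6.67% (0.169 to 31.9%), against 2.98% of those without (1.64 to 4.95%). At 2000 UMIs the shares were 20.6% (8.70 to 37.9%) and 6.68% (4.52 to 9.46%), again with overlapping intervals. The intervals were apart only at 5000 UMIs, with 42.0% (30.2 to 54.5%) and 7.88% (5.34 to 11.1%), and without thinning. In A14 the shares were 25.7% (12.5 to 43.3%) and 17.6% (12.2 to 24.2%) at 1000 UMIs, and 64.3% (54.7 to 73.1%) and 44.2% (29.1 to 60.1%) at 5000 UMIs, with overlapping intervals at both. In fibroblast-like cells at 5000 UMIs, 1 of 10 cells with TMEM176A held TMEM176B, against 19.4% of the 31 others, and at 1000 UMIs 0 of 8 did. Without thinning, where depth is not held equal, the fibroblast shares were 30.8% (17.02 to 47.6%) and 9.94% (5.79 to 15.6%), with intervals that were apart. In A14 without thinning, 108 cells held both genes among 168 with either. At 1000 UMIs shared detection was therefore not resolved in A9, A14 or fibroblast-like cells taken alone.

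**Figure D4:**
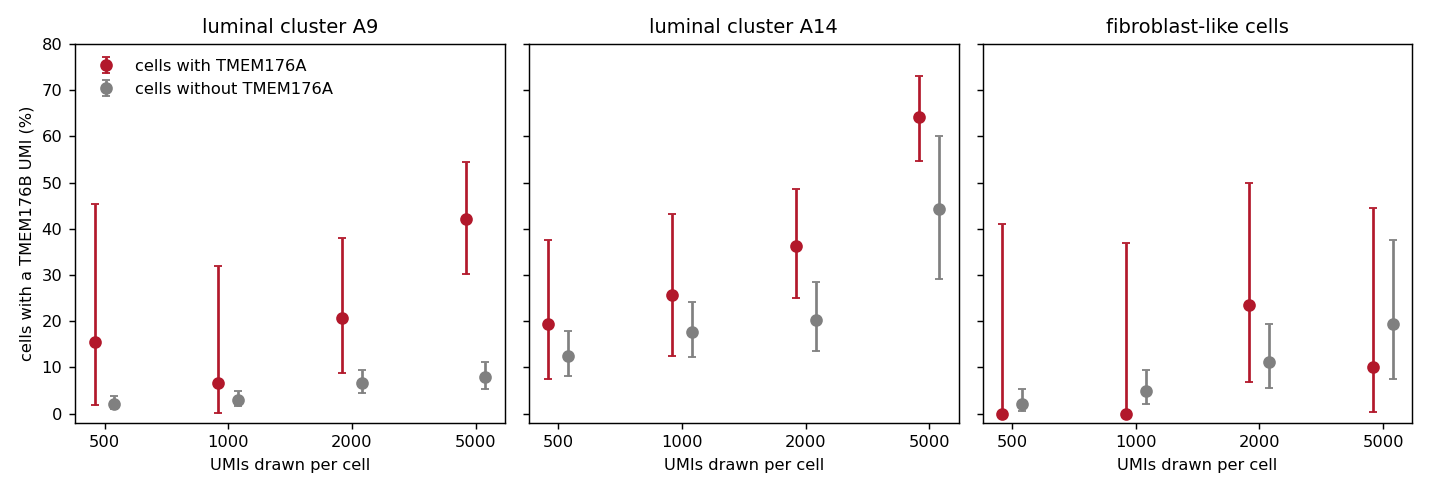
Share of cells with a TMEM176B UMI among cells with and without TMEM176A, after thinning every cell to 500, 1000, 2000 or 5000 UMIs, with 95% binomial intervals. In A9 the intervals overlap at 500, 1000 and 2000 UMIs and are apart at 5000 UMIs, with 42.0% and 7.88%; in A14 and in fibroblast-like cells they overlap at all 4 depths.

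The ratio of TMEM176A to TMEM176B UMIs was similar in the classes that held most of them. It was 1.29 in luminal epithelial-like cells (1.18 to 1.40), 1.24 in A9, 1.34 in A14, 1.30 in fibroblast-like cells (0.844 to 2.01) and 1.25 over the newborn cells (0.444 to 3.64). It was 0.929 in the T or NK class (0.523 to 1.64) and 1.09 among endothelial-like cells (0.586 to 2.04), with intervals that overlap the others. These are ratios of UMIs from the 3' ends of transcripts with no correction for length. Among the 348 luminal cells with either gene the rank correlation of their UMIs was 0.49, given as a description since both follow the depth of the cell.

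**Figure D5:**
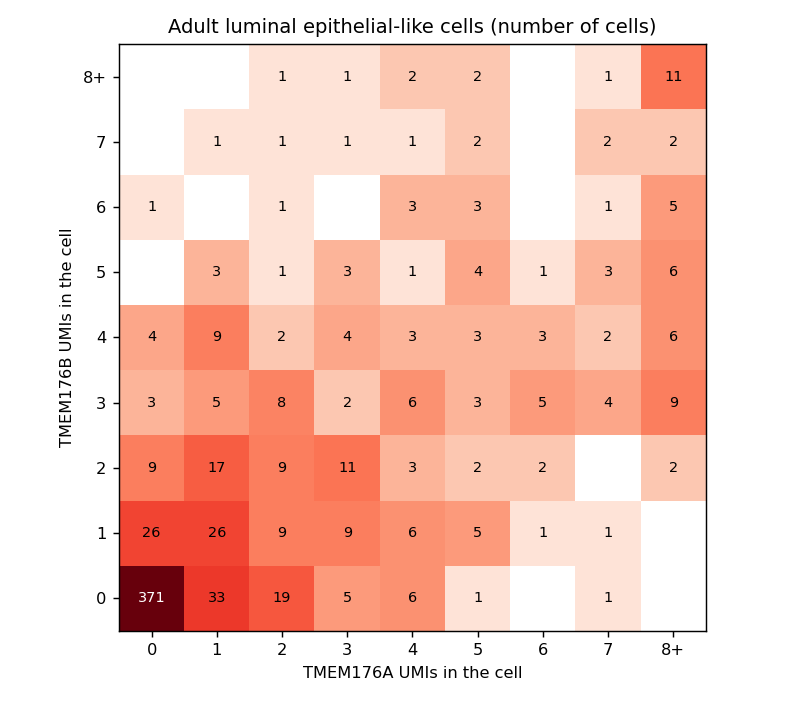
Number of adult luminal epithelial-like cells by TMEM176A UMIs (x axis) and TMEM176B UMIs (y axis), with 8 or more pooled in the last column and row. The colour follows the logarithm of the number; 371 cells hold neither gene, and cells with many UMIs of TMEM176A mostly hold TMEM176B too.

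The other 5 pairs of the 4 genes were taken in the same way. Without thinning, AKR1C4 was found in 34.4% of luminal cells with TMEM176A and 4.35% of those without. At 1000 UMIs a single luminal cell held both, and the shares were 2.0% (0.0506 to 10.6%) and 2.50% (1.44 to 4.03%), so that no difference was detectable at that depth. At 2000 UMIs they were 8.74% (4.07 to 15.9%) and 3.59% (2.21 to 5.49%), with overlapping intervals. At 5000 UMIs they were 19.9% (14.3 to 26.5%) and 6.33% (4.17 to 9.13%), and with TMEM176B in place of TMEM176A 22.1% and 6.55%. KLK7 had no UMI in luminal cells and so no pair there. In fibroblast-like cells at 1000 UMIs, every pair that could be formed rested on at most 2 cells with both genes, which resolves nothing.

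Within the fibroblast-like cells TMEM176 and AKR1C4 peaked in different sub-clusters. Clustering these 200 cells again, likewise chosen after first results, gave 6 groups, F0 to F5. F0, with 64 cells, had the highest level of COL15A1 (1375 CPM), a basement membrane collagen gene. TMEM176A stood there at 177.8 CPM (116.1 to 260.5) and TMEM176B at 136.8 CPM (83.5 to 211.2), while AKR1C4 stood at 75.2 CPM (37.6 to 134.6). F2, with 31 cells, had little COL15A1 (36.5 CPM) and much PI16 (5291 CPM), a gene of adventitial fibroblasts. F3, also of 31 cells, had still more PI16 (6462 CPM) but held TMEM176A at 59.1 CPM (23.8 to 121.8) and TMEM176B at 50.7 CPM (18.6 to 110.3), so PI16 did not mark the cells without TMEM176. In F2, AKR1C4 stood at 277.7 CPM (196.5 to 381.2), TMEM176A at 14.6 CPM (1.77 to 52.8) and TMEM176B at 0 UMIs. The intervals of F0 and F2 did not overlap for TMEM176A, TMEM176B or AKR1C4, and the first 2 went the other way from the third. KLK7 showed no such split, with 88.9 CPM in F0 (47.3 to 152.0) and 43.9 CPM in F2 (16.1 to 95.4).

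Among fibroblast-like cells, the 55 with a TMEM176 UMI had a median of 3942 UMIs and the 145 without a median of 1820. Depth thus moved with detection here too. Cells with a TMEM176 UMI had less CXCL14, at 41.6 CPM against 1039 CPM in those without. They also had less PRG4, the lubricin gene, at 83.1 against 1263 CPM, and less COL8A1, at 49.1 against 463.7 CPM. They had more DLK1, a stromal signalling gene, at 3951 against 812.8 CPM. These genes were again picked for their difference. CXCL14 thus went with the TMEM176 genes among A9 cells and against them among fibroblast-like cells.

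Genes with the most similar pattern were sought over the 18 adult clusters of at least 50 cells and 10089 genes, by correlation of log2 levels. For TMEM176A they were TMEM176B (r = 0.998), FAM13A (0.973), ARSE (0.967), CXCL14 (0.955) and AUTS2 (0.954). For TMEM176B they were TMEM176A, ARSE (0.974), FAM13A (0.972), CLDN1 (0.956), a tight junction gene, and CXCL14 (0.9504). For AKR1C4 they were SMOC2 (0.983), RAB34 (0.978), CXCL14 (0.971), PLEKHA4 (0.956) and GHR (0.956), the growth hormone receptor. For KLK7 they were CPXM1 (0.999), PODN (0.998), VCAN (0.998), LUM (0.998) and FAP (0.997), all highest in the fibroblast-like cluster A16. The clusters share 1 library, and a gene counted in 1 cluster only resembles every other such gene, as for KLK7.

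Most chromosomal neighbours were too low in fibroblast-like cells to compare. Gene order was taken from RefSeq for ARS-UCD2.0, which may differ from the build of the files. Up to 5 counted genes on each side gave 30 different neighbours, leaving out the 4 genes themselves. TMEM176A and TMEM176B, each next to the other and both past 4-fold, are therefore not among them. Of the 30, 9 had at least 20 UMIs in fibroblast-like cells of either library. Of these 9, 0 were past 4-fold in either direction, against 2.44% and 1.2% of all genes measured. At such shares 9 genes would hardly hold a call either. KLF6 near AKR1C4 stood at a ratio of 1.30, NET1 at 1.63, and KLK10 near KLK7 at 2.15, with 34.4 CPM in the adult and 16.01 CPM in the newborn. GIMAP4 and GIMAP5, lymphocyte genes near TMEM176A, had 11 and 5 adult and 9 and 6 newborn UMIs, too few to be counted, with ratios of 80.1 (30.2 to 219) and 54.6 (13.2 to 215). AKR1C3, the closest counted relative of AKR1C4, had 0 UMIs in fibroblast-like cells of either stage. The AKR1C genes are related copies of each other, and how alike the bovine sequences are was not checked. Reads that match several copies could have been dropped or assigned to another, so the AKR1C4 level is uncertain to that degree.

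Relatives and pathway partners were taken from 6 lists, in fibroblast-like cells. Of 19 prostaglandin genes measured, 2 passed the 4-fold limit towards the adult and 1 towards the newborn, against 2.44% and 1.2% of all genes measured. The lists are short, so that at these shares 0 or 1 call in a list is near the level of all genes. PTGS1, the constitutive cyclooxygenase, stood at 131.3 CPM in the adult and 17.1 CPM in the newborn, a ratio of 7.68 (6.05 to 9.64). PTGR1, a prostaglandin reductase, stood at 57.8 and 14.3 CPM, a ratio of 4.03 (2.81 to 5.62), just inside the limit, and was past it no longer when scaled by the median gene, at 2.36. PTGS2, the inducible cyclooxygenase, stood at 232.8 CPM in the adult and 1113 CPM in the newborn, a ratio of 0.209 (0.177 to 0.246). Of 17 steroid genes measured 0 passed in either direction; SULT1A1, a sulfotransferase, stood at 434.4 and 204.2 CPM and the glucocorticoid receptor gene NR3C1 at 248.5 and 112.3 CPM. Of 3 aldo-keto reductases measured 0 passed, with AKR1A1 at 28.1 and 9.93 CPM.

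Of 5 kallikreins, inhibitors and targets measured, 1 passed. It was A2M, a broad protease inhibitor, at 1939 CPM in the adult and 142.8 CPM in the newborn, a ratio of 13.6 (12.8 to 14.4). KLK1, the tissue kallikrein and a neighbour of KLK7, had 12 adult and 5 newborn UMIs and was below the limits, with a ratio of 157 (51.5 to 570). Of the MS4A family 1 gene was measured and of the type 17 lymphocyte genes 3, and 0 passed in either list. The medians of the 6 lists lay between 0.44 and 1.61 on the log2 scale, against 0.77 for all genes measured. For these medians 0.5 UMIs were added to each count. Both ends of the range came from lists with 3 genes measured, the aldo-keto reductases and the type 17 genes. The MS4A median, 0.54, was that of MS4A13 alone, with 0 adult and 22 newborn UMIs, so it rests on the added 0.5 UMIs.

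Outside fibroblast-like cells, these partners were highest in different classes. The cytokine receptor gene IL23R had 0 UMIs in luminal epithelial-like cells and was highest in T or NK cell-like cells at 6.88 CPM. CYP11A1, the enzyme that starts steroid synthesis from cholesterol, was highest in luminal epithelial-like cells, at 583.1 CPM. MS4A8 was highest in neutrophil-like cells at 216.5 CPM, and MS4A7 in macrophage or monocyte-like cells at 194.9 CPM.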

How the data were processed

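The authors deposited UMI counts for every gene in each barcode, without normalisation. Per the submitters' processing notes, Cell Ranger 3.1.0 was used. No genome build is given in the sources used here. Libraries were 10x 3' V3, per the labels' protocols.

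Barcodes with at least 300 genes and at most 20% of UMIs from 13 mitochondrially encoded genes were kept. Doublets were scored with Scrublet in scanpy 1.11.5. Its automatic threshold marked 0% in both libraries and did not work, so the top-scoring 12.7% of adult and 11.0% of newborn cells, expected at 0.8% per 1000 barcodes, were taken out. Each library was clustered alone without the 4 genes (2000 variable genes, 30 components, 15 neighbours, Leiden resolution 1, seed 1). Clusters were named "like" from 19 marker lists, at 3 or more markers and 30% of a list held, limits set with the data in hand.

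UMIs were summed per class, with exact Poisson or binomial intervals of 95%. A count of 0 is set against a floor of 3 UMIs over the class. Ratios are adult over newborn, and a gene was counted past 4-fold with 50 CPM and 20 UMIs in the higher library. For shares of cells, each cell was thinned by 1 random draw, leaving shallower cells out. Correlations used log2 of CPM plus 10. Ratios and thinning were tested on simulated data. The genes and lists were chosen with earlier results of these data known. Named were the 4 genes, the 5 most alike per gene, up to 5 neighbours a side, list members past 4-fold or with high levels, leading genes of clusters with at least 25% of a gene's highest level, and cell type markers. Genes split by TMEM176 detection, FOXA1, KRT15 and partners described outside fibroblast-like cells were named after their values were seen. Alternatives covered cell limits, doublets, resolution, marker gates per cell (with and without a milk share rule that was added after the gates' values were seen), scaling, minimum counts and thinning. Promoter motifs were not run, as no sequence table was given.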

Additional observations from a re-analysis of the deposited data

Results flagged for a closer look

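Barcodes removed as likely doublets lie outside the comparisons above, and in the adult library they held counts of all 4 genes. TMEM176A had 258 UMIs in 107 removed barcodes, TMEM176B had 220 in 101, AKR1C4 had 155 in 65, and KLK7 had 45 in 15. In the newborn library the removed barcodes held 1, 0, 0 and 2 UMIs of TMEM176A, TMEM176B, AKR1C4 and KLK7. With doublet removal left out, 194 of the TMEM176A UMIs fell to luminal epithelial-like and 33 to fibroblast-like cells, and all 45 KLK7 UMIs fell to fibroblast-like cells with a median of 5410 UMIs. Of all 94 adult KLK7 UMIs, nearly as many were thus in removed barcodes as in kept ones, in the same cell class. Whether the removed barcodes were doublets was not tested.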

How the results depend on the processing

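The adult over newborn ratios of the 4 genes in fibroblast-like cells kept their direction and moved by less than their counting interval under all alternatives run. They ranged for TMEM176A from 664 to 1413, for TMEM176B from 511 to 1096, for AKR1C4 from 713 to 1529 and for KLK7 from 176 to 399, with the lowest value each under scaling by the median of ratios. The luminal epithelial-like level of TMEM176A was 62.2 CPM with at least 500 genes per cell and 61.4 CPM at Leiden resolution 0.5, and that of TMEM176B 49.8 and 49.4 CPM. In these 2 settings A14 met the basal and the luminal list equally and was named basal or myoepithelial-like, so that it left the class. Under marker gates per cell these levels were 36.7 and 28.7 CPM, and 380 of the 1175 cells so called luminal lay in the milk-secreting cluster class. After that value had been seen, a rule was added that calls cells with at least 50% of UMIs from milk genes milk-secreting, which gave 89.8 and 70.3 CPM. The number of genes past 4-fold in fibroblast-like cells was 295 higher in the adult and 145 higher in the newborn as reported. It was 194 and 92 without doublet removal, 120 and 331 when scaled by the median ratio, and 2637 and 276 with no minimum CPM or UMIs. The cause was not tested. The share of luminal cells with TMEM176A that also held TMEM176B was 20.0% at 1000 UMIs, 55.8% at 5000 UMIs, a depth chosen after seeing the data, and 78.7% without thinning. Joining the unnamed newborn clusters with mostly fibroblast markers was also chosen after seeing the data. No paired analysis was possible because each stage has 1 library, and for the same reason no replicate could be left out. Low depth limits the fibroblast shares, with 41 of 200 cells left at 5000 UMIs.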
